A study of Schizosaccharomyces pombe with 6 samples.

Results

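The genes described here encode the pheromone response MAP kinase pathway of fission yeast, followed across *asp1-H397A aps1*∆ *siw14*∆ *spx1*∆ cells and wild-type cells. The 7 members were taken by systematic ID, and all 7 were among the 5947 genes tested of 6988 in the count table. They are *gpa1* (SPBC24C6.06), *ras1* (SPAC17H9.09c), *ste6* (SPCC1442.01), *ste4* (SPAC1565.04c), *byr2* (SPBC1D7.05), *byr1* (SPAC1D4.13), and *spk1* (SPAC31G5.09c). The mutant carries *asp1-H397A* marked with *natMX*, *aps1*∆ with *kanMX*, *siw14*∆ with *hygMX*, and *spx1*∆ with *ura4MX*; it lacks 3 inositol pyrophosphatase activities, those of Asp1, Aps1, and Siw14, and the SPX domain protein Spx1. Both strains are labelled haploid and *h-*, and poly(A)+ RNA was taken from 3 cultures of each during vegetative growth in logarithmic phase at 30°C in ePMGT medium. The study's strain list, however, gives this mutant genotype as *h+*, under a strain number other than that of the labels, so a difference in mating type between the strains cannot be told apart from the other alleles. No mating partner and no starvation treatment is named in the labels, so the values are those of growing cells.

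In fission yeast, mating pheromone binds a receptor that acts through the G protein alpha subunit Gpa1. Gpa1 and the GTPase Ras1, which is loaded with GTP by the exchange factor Ste6, act on the MAP kinase kinase kinase Byr2 together with its adaptor Ste4. Byr2 activates the MAP kinase kinase Byr1, which activates the MAP kinase Spk1, and the cascade feeds the transcription factor Ste11, which drives mating genes through DNA elements called TR boxes.

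Library totals were 20305111 to 22690741 counts in the mutant and 16593476 to 21436751 counts in the wild-type. Counts of the altered genes were lower in the mutant, where *aps1* had 307 to 330 counts in mutant libraries against 3083 to 3657 in wild-type libraries, *siw14* had 70 to 107 against 1925 to 2666, and *spx1* had 1915 to 2369 against 4524 to 6452. Normalized counts in the mutant came to 8.68% of wild-type for *aps1*, 3.61% for *siw14*, and 33.1% for *spx1*, and which part of each gene model is deleted was not settled here. The gene with the H397A allele, *asp1*, had 927 to 1034 counts in mutant libraries against 1199 to 1417 in wild-type libraries. Its normalized counts came to 70.8% of wild-type (log2 fold change −0.50, edgeR adjusted p = 0.00967). The marker gene *ura4* had 8309 to 9631 counts in mutant libraries and 0 in each wild-type library, so effects of the marker and of the other alleles cannot be told apart here. All 7 markers of M-type (*h-*) cells had counts in every library, with summed normalized counts of 3638 to 3815 in the mutant and 6245 to 8917 in the wild-type. Most of this difference was in *mfm2*, at means of 793 in the mutant and 3621 in the wild-type. *mfm1*, *mfm3*, *mam1*, and *mam2* were also lower at an edgeR adjusted p of at most 0.05. The other M-type markers, *mam3* (log2 fold change −0.12, edgeR adjusted p = 0.668) and *sxa2* (0.05, 0.888), did not pass. All 4 markers of P-type (*h+*) cells also had counts in every library, summing to 14268 to 15047 in the mutant and 14301 to 18166 in the wild-type. The P-type sum was mostly *sxa1*, a pheromone-degrading protease, at means of 13587 in the mutant and 14924 in the wild-type; *map3*, the M-factor receptor, averaged 278 in the mutant and 281 in the wild-type, and *map2*, the P-factor gene, was lower at 73.7 in the mutant and 124.7 in the wild-type (log2 fold change −0.76, edgeR adjusted p = 0.0164). The P-type marker *map4* averaged 792 in the mutant and 811 in the wild-type (log2 fold change −0.03, edgeR adjusted p = 0.901). The part of either marker group in the results was not tested. In bulk RNA, fewer cells that express a gene and less RNA in each cell cannot be told apart.

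Transcripts of the adaptor *ste4* and the MAP kinase *spk1* were lower in the mutant by over 2-fold, those of *gpa1*, *ste6*, and *byr1* were lower by less, and no change of *ras1* or *byr2* passed the test. A gene was called when edgeR's quasi-likelihood test gave an adjusted p of at most 0.05, the change was at least 2-fold, and the mean normalized count was at least 100 in the higher strain. By this rule, 2 of 7 members were called lower against 102 of 5947 genes tested (1.72%), and 0 of 7 were called higher against 22 genes (0.37%). At an adjusted p of at most 0.05 without the other cutoffs, 5 of 7 members were lower against 7.03% of all genes tested, and 0 of 7 were higher against 5.33%. The number higher was also 0 by DESeq2, by limma-voom, and by edgeR at an unadjusted p under 0.05. All 3 mutant libraries lay below all 3 wild-type libraries for 5 of 7 members, as they did for 17.3% of genes tested. The median log2 fold change was −0.80 over the members and 0.00 over all genes tested. *ste4* and *spk1* were already listed as lower by the study from these same cultures, so their calls are not independent evidence. Tested against a 2-fold change rather than 0, by edgeR's glmTreat, neither was called (adjusted p of 0.550 for *ste4* and 0.132 for *spk1*).

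**Figure D1:**
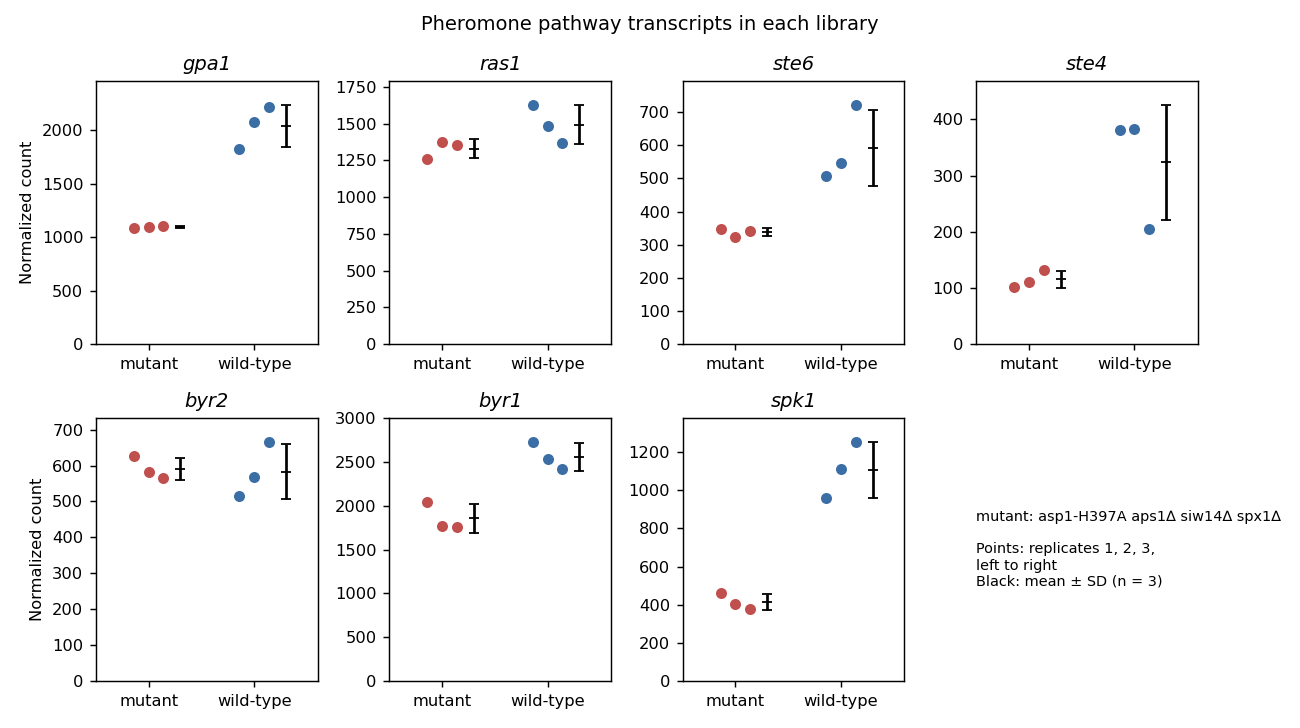
Normalized counts (vertical axes, each from 0) of the 7 members in the 3 mutant libraries (red, left) and the 3 wild-type libraries (blue, right), with black bars for mean ± SD. For *gpa1*, *ste6*, *ste4*, *byr1*, and *spk1* every mutant point lies below every wild-type point, while the points of *ras1* and *byr2* overlap.

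The sequences before the annotated starts of members are shown because Ste11 is known to act through the TR box, and because members differ in whether they hold its letters. In 6 members, all but *ste4*, both strands of the 250 bases before the gene start were searched for the core letters TTCTTTGTT and for the shorter CTTTGTT nested in them. The sequences are from RefSeq ASM294v3, are written 5′ to 3′ in the direction of the gene, and carry the matched letters in capitals, AACAAAGAA being a match on the opposite strand. *spk1* lies on the minus strand of chromosome I, *ste6* on the plus strand of chromosome III, and *gpa1* on the plus strand of chromosome II.
*spk1*, bases 200 to 151 before the start: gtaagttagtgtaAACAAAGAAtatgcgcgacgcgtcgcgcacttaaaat
*spk1*, bases 80 to 1 before the start: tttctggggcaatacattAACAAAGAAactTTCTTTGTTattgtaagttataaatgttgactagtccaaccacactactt
*ste6*, bases 190 to 161 before the start: attgttagtaAACAAAGAAattcccaaaat
*gpa1*, bases 250 to 221 before the start: ctttttagataaggtCTTTGTTgtagaaac
*gpa1*, bases 90 to 61 before the start: taagtaaaaagcCTTTGTTtctgtaattgt

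The longer core was found in 2 of these 6 members and in 82 of 5111 protein-coding promoters of the same length (1.6%). It occurred in *ste6* at 180 to 172 bases before the start, and 3 times in *spk1*, at 187 to 179, 62 to 54, and 50 to 42. The last 2 of these in *spk1* lie on opposite strands and point away from each other, 3 bases apart. The shorter core was found in 3 of the 6, with *gpa1* added, and in 445 of 5111 promoters (8.71%). In *gpa1* it lay at 235 to 229 and at 78 to 72 bases before the start. Neither core was found in the window of *ras1*, *byr2*, or *byr1*, which says only that these letters are not there. Of the 6, the 3 members with a match are those with the 3 lowest log2 fold changes. This is a description of 6 genes, and a match is neither a binding site nor a cause of a change. Among 71 protein-coding genes called lower, 5 held the longer core (7.04%) and 11 the shorter (15.5%), against 73 (1.5%) and 416 (8.55%) of 4865 that were tested and not called lower. The 5 include the member *spk1* and *mei2*, *mfm1*, and *ste11* of the sexual differentiation list below. The 11 include these and *mam2* and *mfm2* of that list. These shares are thus not separate from the members and that list, which supply most of the matches at either length. They do not describe the other genes called lower, whose share was not computed. The annotated start lies 628 bases before the start codon in *gpa1*, 550 in *spk1*, and 0 in *ste6*, whose annotation holds no 5′ untranslated region.

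**Figure D2:**
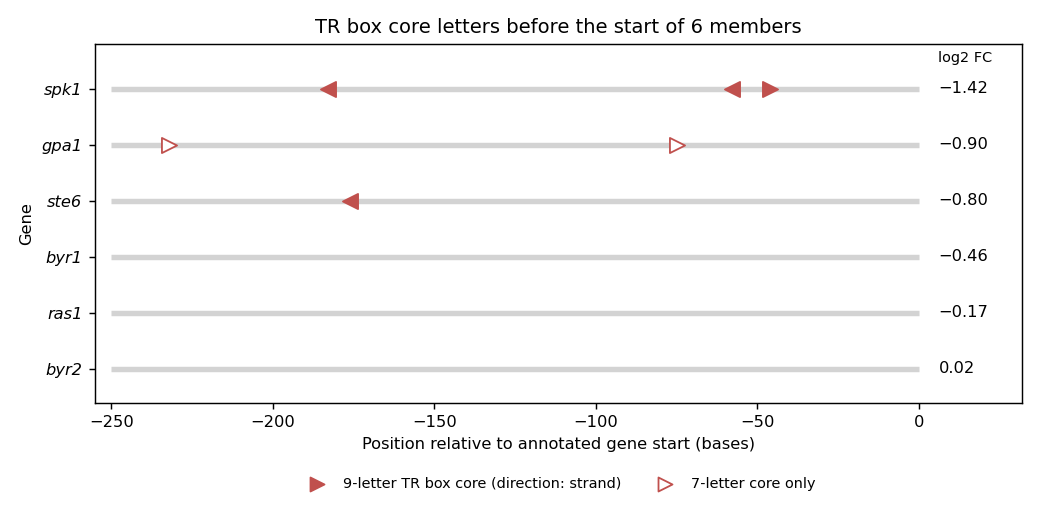
Positions of TR box core letters in the 250 bases before the annotated start (horizontal axis, bases) of 6 members, ordered by log2 fold change (right). Filled arrows mark the 9-letter core, open arrows the 7-letter core alone, and the arrow direction the strand; *spk1*, *gpa1*, and *ste6* hold matches and *byr1*, *ras1*, and *byr2* hold none.

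At the G protein step, *gpa1* had normalized counts of 1088, 1095, and 1105 in mutant replicates 1, 2, and 3, against 1824, 2078, and 2212 in wild-type replicates 1, 2, and 3. A normalized count is the count scaled to a common library size. The mutant libraries lay within a narrow span and all below the wild-type libraries. The coefficient of variation in the mutant was 0.78%, below the 2.95% that counting error alone gives. That narrow span is thus no measure of how much cultures vary. The means were 1096 ± 8.53 in the mutant and 2038 ± 197 in the wild-type (SD, n = 3 each), and the log2 fold change was −0.90 (standard error 0.10, 95% interval −1.12 to −0.67, edgeR adjusted p = 0.000237). *gpa1* was thus 1.86-fold lower and short of the 2-fold cutoff. It is a gene of 1 exon. The noncoding RNA SPNCRNA.1503 covers 47.3% of its exon length on the other strand and averaged 252 normalized counts in the mutant and 344 in the wild-type (log2 fold change −0.45, edgeR adjusted p = 0.0724).

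*ras1*, the GTPase that serves both mating and cell shape, had 1258, 1378, and 1352 normalized counts in the mutant libraries and 1627, 1486, and 1366 in the wild-type libraries. The strains overlapped, since wild-type replicate 3 lay below mutant replicate 2. The log2 fold change was −0.17 (standard error 0.11, 95% interval −0.40 to 0.07, edgeR adjusted p = 0.350). Without wild-type replicate 3 it was −0.23 and passed the test at an edgeR adjusted p of 0.0461. *leu5*, a coenzyme A transporter gene, covers 86.5% of the *ras1* exons on the other strand and averaged 1187 in the mutant and 1045 in the wild-type (log2 fold change 0.18, edgeR adjusted p = 0.298).

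*ste6*, the exchange factor that acts on Ras1 in mating, had 347, 324, and 343 normalized counts in the mutant libraries and 506, 545, and 722 in the wild-type libraries. All mutant values were below all wild-type values, and wild-type replicate 3 was the highest. The means were 338 ± 12.2 in the mutant and 591 ± 115 in the wild-type (SD, n = 3 each), and the log2 fold change was −0.80 (standard error 0.17, 95% interval −1.17 to −0.44, edgeR adjusted p = 0.00905). It did not pass without mutant replicate 2 (−0.77, edgeR adjusted p = 0.0565) or mutant replicate 3 (−0.81, 0.0532), and it passed without mutant replicate 1 (−0.83, 0.0396). The noncoding RNA SPNCRNA.1227 covers 100% of *ste6* on the other strand, at 168 in the mutant and 149 in the wild-type (log2 fold change 0.18, edgeR adjusted p = 0.549). *efc25*, the other Ras1 exchange factor, which serves cell shape, changed the other way. It had 2724, 2645, and 2967 normalized counts in the mutant and 1799, 2018, and 2371 in the wild-type, for a log2 difference of 0.43 (standard error 0.11, edgeR adjusted p = 0.0275).

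*ste4*, the adaptor that binds Byr2, was the member with the lowest log2 fold change. It had 102, 111, and 132 normalized counts in mutant replicates 1, 2, and 3, and 382, 383, and 205 in wild-type replicates 1, 2, and 3. Wild-type replicate 3 stood well below the other wild-type libraries but above every mutant library. The means were 115 ± 15.5 in the mutant and 323 ± 102 in the wild-type (SD, n = 3 each), 2.81-fold lower in the mutant, for a log2 difference of −1.49 (standard error 0.24, 95% interval −2.02 to −0.96, edgeR adjusted p = 0.00232). The coefficient of variation was 13.5% in the mutant, where counting error alone gives 9.1%, and 31.6% in the wild-type, where it gives 5.7%. Without wild-type replicate 3 the log2 fold change was −1.73. Only 26 bases of *ste4* overlap another annotated gene.

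*byr2*, the MAP kinase kinase kinase that Ste4 binds, had 626, 582, and 566 normalized counts in the mutant libraries and 515, 568, and 666 in the wild-type libraries. The 2 strains overlapped fully, with the wild-type spanning the mutant. The log2 fold change was 0.02 (standard error 0.14, 95% interval −0.30 to 0.34, edgeR adjusted p = 0.949), an interval that leaves room for changes of that size in either direction. The noncoding RNA SPNCRNA.5332, which was not found in the count table, covers 67.2% of *byr2* on the other strand. The ratio of *ste4* to *byr2* per exon length was 0.349, 0.411, and 0.501 in the mutant libraries and 1.59, 1.45, and 0.661 in the wild-type libraries. These ratios did not overlap between strains, and their difference on the log2 scale was −1.47 (exact permutation test, two-sided, p = 0.1, adjusted p = 0.14 over 21 pairs of members). With 3 libraries against 3, 0.1 is the smallest p that this test can give.

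*byr1*, the MAP kinase kinase, had 2045, 1772, and 1759 normalized counts in the mutant libraries and 2735, 2539, and 2417 in the wild-type libraries. The strains did not overlap, and the spread within each was alike, at 1858 ± 162 in the mutant and 2564 ± 160.3 in the wild-type (SD, n = 3 each). The log2 fold change was −0.46 (standard error 0.10, 95% interval −0.68 to −0.25, edgeR adjusted p = 0.0111), the smallest of the 5 that passed. It did not pass without wild-type replicate 2 (edgeR adjusted p = 0.0581), mutant replicate 2 (0.0826), or mutant replicate 3 (0.0857). The noncoding RNA SPNCRNA.674 covers 100% of *byr1* on the other strand, at 184 in the mutant and 143 in the wild-type (log2 fold change 0.36, edgeR adjusted p = 0.305).

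*spk1*, the MAP kinase at the end of the cascade, had 459, 405, and 376 normalized counts in the mutant libraries and 961, 1109.7, and 1254 in the wild-type libraries. Every mutant library had fewer than every wild-type library, with a wide gap between the strains. The means were 414 ± 42.1 in the mutant and 1108 ± 147 in the wild-type (SD, n = 3 each), 2.68-fold lower in the mutant, for a log2 difference of −1.42 (standard error 0.15, 95% interval −1.75 to −1.10, edgeR adjusted p = 0.000106). *hem4*, a heme biosynthesis gene, covers 77.3% of *spk1* on the other strand. It had 1514, 1293, and 1424 normalized counts in the mutant and 1232, 1249, and 784 in the wild-type (log2 fold change 0.37, edgeR adjusted p = 0.171). The library preparation was directional, but no source used here says whether reads were counted by strand. Of 459 protein-coding genes covered for at least 95% by opposite-strand features in the ASM294v3 annotation, 353 had at least 100 counts in every library.

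Of the 21 pairs of members, 15 had ratios that did not overlap between strains, as did 38.5% of all pairs among 5943 tested genes with counts in every library. The *byr1* to *spk1* ratio per exon length was 5.05, 4.96, and 5.30 in the mutant libraries and 3.23, 2.60, and 2.19 in the wild-type libraries, a difference of 0.95 on the log2 scale (exact permutation test, p = 0.1). The *byr2* to *spk1* ratio averaged 1.23 ± 0.06 in the mutant and 0.452 ± 0.011 in the wild-type (SD, n = 3 each). Thus *byr2* stood above *spk1* in each mutant library and below it in each wild-type library when levels were taken per exon length. Per coding length, *spk1* stood above *byr2* in the mutant too (18.0 ± 1.83 RPKM against 14.6 ± 0.76, SD, n = 3 each). The *ste4* to *spk1* ratio overlapped between strains, with a difference of −0.02 on the log2 scale (exact permutation test, p = 1).

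Levels between genes were compared per exon length, as RPKM. In the mutant the order was *ras1* (59.0 ± 2.81 RPKM), *byr1* (52.1 ± 4.54), *gpa1* (24.5 ± 0.19), *byr2* (12.5 ± 0.65), *spk1* (10.2 ± 1.04), *ste6* (5.71 ± 0.21), and *ste4* (5.25 ± 0.71), each as mean ± SD (n = 3). In the wild-type the order was *byr1* (71.9 ± 4.49 RPKM), *ras1* (66.2 ± 5.80), *gpa1* (45.6 ± 4.40), *spk1* (27.4 ± 3.63), *ste4* (14.7 ± 4.66), *byr2* (12.4 ± 1.63), and *ste6* (9.98 ± 1.94). Neighbours that overlapped between libraries were *ras1* and *byr1* in both strains, *ste6* and *ste4* in the mutant, and *ste4* with *byr2* and *byr2* with *ste6* in the wild-type. The median over protein-coding genes was 35.6 RPKM in the mutant and 34.5 RPKM in the wild-type. *spk1* stood at percentile 13.8 of these genes in the mutant and 42.2 in the wild-type, and *ste4* at 6.48 and 22.1 in the same order of strains. *byr2* stayed at percentile 17.6 in the mutant and 17.8 in the wild-type.

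**Figure D3:**
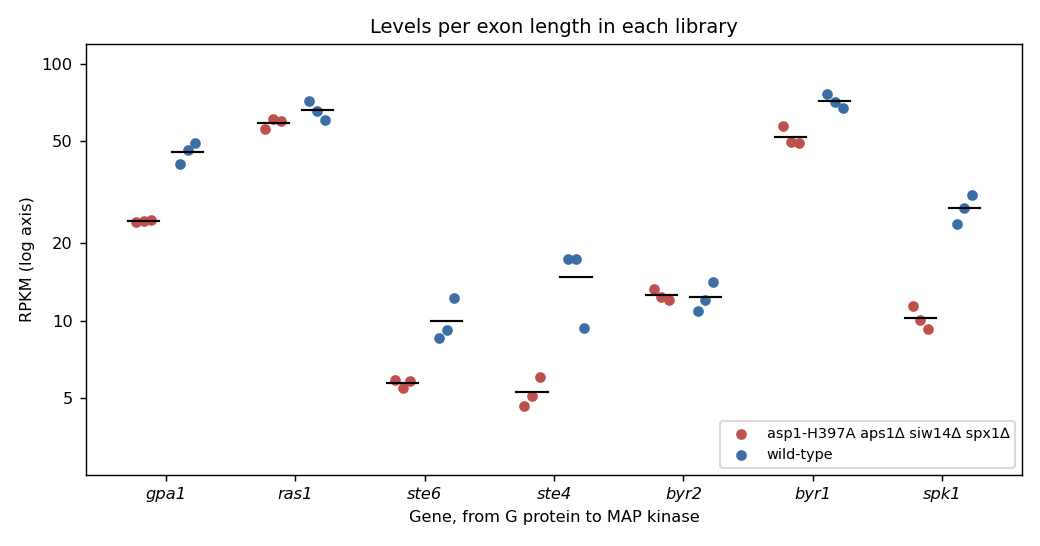
RPKM of each member (vertical log axis) in the mutant libraries (red, left of each pair) and the wild-type libraries (blue, right), with black lines at the means. *byr2* lies at the same height in both strains, *spk1* lies below it in the mutant (above it there per coding length) and above it in the wild-type, and *ste4* shows the wide wild-type spread.

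Among 11 partners of the G protein and Ras1, 1 was lower and 1 higher at an adjusted p of at most 0.05. Of all genes tested, 7.03% were lower and 5.33% higher by that threshold. The median log2 fold change of the 11 was −0.02. The lower gene was *rgs1*, a regulator that turns off Gpa1 signaling, at 529, 394, and 411 normalized counts in the mutant and 686, 787, and 756 in the wild-type (log2 fold change −0.74, standard error 0.15, edgeR adjusted p = 0.00967). The higher gene was *efc25*. Neither *gap1*, the Ras1 GTPase activator (0.27, edgeR adjusted p = 0.185), nor *scd1*, the Cdc42 exchange factor downstream of Ras1 (−0.31, edgeR adjusted p = 0.0709), passed.

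The kinases of the other MAP kinase cascades did not pass the test. In the Sty1 stress cascade, the log2 fold changes were 0.22 for *wis4* (edgeR adjusted p = 0.134), 0.19 for *wis1* (0.260), and 0.05 for *sty1* (0.803). In the Pmk1 cell integrity cascade they were 0.06 for *mkh1* (edgeR adjusted p = 0.780), 0.16 for *pek1* (0.441), and 0.25 for *pmk1* (0.157). Of the 12 genes of the Sty1 list, 1 was lower, against 7.03% of all genes tested. The lower gene was the transcription factor gene *atf1* (−0.79, standard error 0.11, edgeR adjusted p = 0.000856). *mpr1*, a phosphorelay protein (−0.43, 0.0503), and *mak2*, a histidine kinase (0.26, 0.123), did not pass in edgeR. The median was 0.06 over that list. It was 0.11 over the 6 genes of the Pmk1 list, of which none passed, including the GTPase gene *rho2* (0.20, edgeR adjusted p = 0.326).

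The Gpa2 cAMP pathway senses glucose through a different G protein. Of the 9 genes of its list, 3 were lower and 0 higher, against 7.03% and 5.33% of all genes tested. The median log2 fold change was −0.30. The 3 lower genes were the receptor gene *git3* (−0.37, edgeR adjusted p = 0.0216), the alpha subunit gene *gpa2* (−0.46, 0.0164), and the beta subunit gene *git5* (−0.57, 0.0485). Their changes were smaller than that of *gpa1*, but the difference was not tested.

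Of 16 genes of sexual differentiation, 9 were lower and 0 higher, against 7.03% and 5.33% of all genes tested. Of the 16, 6 were called lower, against 1.72% of all genes tested, and the median was −0.65. *ste11* had 461, 370.3, and 564 normalized counts in the mutant libraries and 1459, 1357, and 1422 in the wild-type libraries, all mutant below all wild-type, for a log2 difference of −1.60 (standard error 0.16, edgeR adjusted p = 6.1e-05). The M-factor pheromone genes *mfm1* (−3.75) and *mfm2* (−2.19) and the meiosis regulator *mei2* (−2.03) had the smallest p-values of the list. *mfm1* and *mfm2* are expressed in M-type (*h-*) cells, and the part of the mutant's mating type, given as *h-* by the labels and *h+* by the strain list, in these values was not tested. Several of these genes had been listed by the study from the same cultures, so the list is not independent evidence of its direction. The longer TR box core was found in 4 of the 16 promoters and the shorter in 8.

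**Figure D4:**
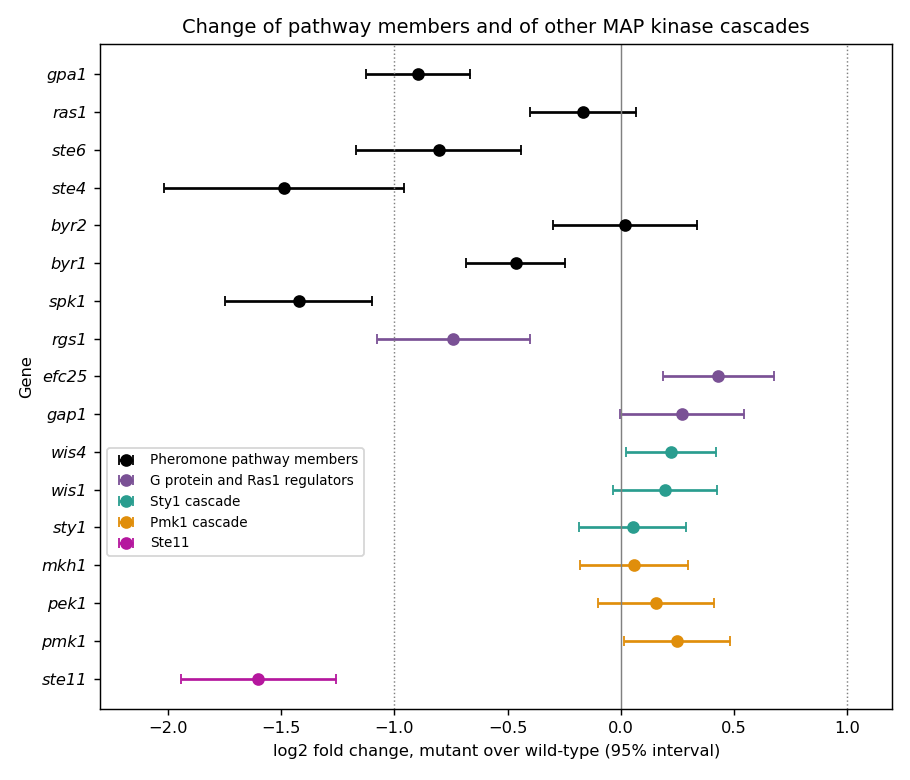
log2 fold change of the mutant over the wild-type (horizontal axis) with 95% intervals not adjusted for the number of genes, for the members (black), regulators of the G protein and of Ras1 (purple), kinases of the Sty1 (green) and Pmk1 (orange) cascades, and *ste11* (magenta). Dotted lines mark 2-fold changes. *ste4*, *spk1*, and *ste11* lie beyond the lower line. The kinases of the other cascades lie at 0.05 to 0.25, with the intervals of *wis4* and *pmk1* above 0.

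The pattern most like each called member was found by the root mean square difference of centred log2 normalized counts over the 6 libraries, among 5048 genes. For *spk1* these were *pbi2* (0.0592, log2 fold change −1.37), SPAC56F8.15 (0.0701, −1.47), and *spx1* (0.0982, −1.59), the last of which is deleted in the mutant. For *ste4* they were SPCC569.07 (0.126, −1.42), SPAC977.15 (0.159, −1.53), and the noncoding SPNCRNA.291 (0.167, −1.57). The distances for *ste4* were larger than those for *spk1*.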

How the data were processed

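Counts came from 3 *asp1-H397A aps1*∆ *siw14*∆ *spx1*∆ and 3 wild-type cultures, grouped by their labels. Raw whole-number counts of each gene were deposited by the authors, made with HISAT2 version 2.1.0 on ASM294v2, SAMtools, and HTSeq version 0.10.0 (submitters' processing notes and methods). A second deposited table holds the authors' DESeq2 comparison and was not used. Names, exon lengths, and sequences came from RefSeq ASM294v3 by systematic ID (6836 of 6988 paired). No coordinates are given because the builds differ. The sequence before *ste4* is not reported here, and *ste4* was left out of the motif counts.

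Genes with few counts were removed by filterByExpr, libraries were scaled by TMM, and strains were compared by the quasi-likelihood test (glmQLFTest, two-sided) in edgeR version 4.0.16 under R version 4.3.3; p-values were adjusted by Benjamini-Hochberg across the 5947 genes kept; the code was tested on simulated data. RPKM was computed here from counts, effective library size, and exon length. Depth was 16593476 to 22690741 counts per library. No pair of replicates agreed within sampling noise, and the disagreement was uneven. The chi-square of the counts per degree of freedom was 5.96 to 27.3 between mutant libraries. Between wild-type libraries it was 18.1 for replicates 1 and 2, 27.9 for 2 and 3, and 66.0 for 1 and 3.

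The members and lists were chosen with earlier results of these data known. Named genes were all members, up to 3 genes with the smallest p-values per list, the kinases of the other cascades, *rgs1*, *gap1*, *efc25*, *ste11*, and 3 genes most like each called member. *hem4*, *leu5*, and other overlapping genes were named for their position, and the M-type and P-type genes as markers. Alternatives were RLE size factors, library totals, no filter, at least 10 counts in every library, DESeq2 version 1.42.0, limma-voom (limma version 3.58.1), a replicate block, glmTreat, protein-coding genes alone, no cutoff on mean count, coding length for RPKM, and leaving out each library.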

Additional observations from a re-analysis of the deposited data

How the results depend on the processing

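*gpa1*, *ste4*, and *spk1* kept their direction and passed the test under every alternative fit run except glmTreat of edgeR, which asks for more than a 2-fold change. Under glmTreat 0 members were called lower, and 2 had an unadjusted p under 0.05 (*ste4* and *spk1*). Leaving out each library in turn gave 3 to 6 members that were lower past the adjusted p threshold of 0.05, with log2 fold changes of −0.97 to −0.84 for *gpa1*, −1.73 to −1.35 for *ste4*, −1.52 to −1.33 for *spk1*, −0.91 to −0.64 for *ste6*, −0.54 to −0.42 for *byr1*, −0.23 to −0.10 for *ras1*, and −0.063 to 0.12 for *byr2*. The count was 3 without mutant replicate 2 or 3, when *ste6* and *byr1* did not pass. *byr2* changed sign with library totals (−0.0065) and with protein-coding genes alone (−0.035), settings that shift the median of all genes by −0.038 and −0.039, so these signs say nothing of *byr2* itself. The difference in log2 ratio of *ste4* to *spk1* was 0.14 without mutant replicate 1, 0.23 without wild-type replicate 1, and 0.12 without wild-type replicate 2, in a range of −0.41 to 0.23. Same-numbered libraries did not deviate together (r of −0.03, −0.03, and −0.06). These values give no sign of pairing by number, but they cannot show that same-numbered cultures were handled apart. With the replicate block, 2 members were called lower and 5 were lower past that threshold (*ste4* −1.45, *spk1* −1.42), and the block changed no call. With coding length, *ste4* stood above *ste6* and *spk1* above *byr2* in the mutant.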
